A study of Mus musculus with 8 samples.

Results

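The epithelial sodium channel and the genes through which aldosterone controls it were examined in kidneys of 8-day-old mice. The set was named by symbol and holds 9 of the 47729 genes in the deposited tables, all 9 of which passed the filter on low counts that left 18548 genes for testing. They are the channel subunit genes Scnn1a, Scnn1b and Scnn1g, the mineralocorticoid receptor gene Nr3c2, the steroid dehydrogenase gene Hsd11b2, the kinase gene Sgk1, the ubiquitin ligase gene Nedd4l, the protease gene Prss8 and the steroid-induced gene Tsc22d3.

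The study sequenced RNA of 4 kidney libraries labelled as a nephron-specific Kctd1 knockout, from mice carrying Six2Cre and the KCTD1fl/fl alleles, and of 4 libraries labelled wildtype, from control littermates of the same age. Six2Cre acts in the progenitors that form the nephron from the podocyte to the connecting segment, whereas the collecting duct, the stroma and the vessels arise from other progenitors, so a whole kidney of a knockout mouse keeps many cells outside the Cre lineage. The floxed and Cre alleles that the control littermates carried, the sex of the mice and whether each library came from a different mouse are not stated in the labels. The p-values therefore measure the spread between these libraries, which may in part be technical.

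The channel is assembled from alpha, beta and gamma subunits in the luminal membrane of the late distal convoluted tubule, the connecting tubule and the principal cells of the collecting duct, where it is the last step of sodium reabsorption. Aldosterone binds the receptor encoded by Nr3c2, which Hsd11b2 shields from the more abundant glucocorticoids by converting them to inactive forms, and the bound receptor switches on Sgk1 and Tsc22d3. The kinase Sgk1 keeps the ligase Nedd4l from removing the channel from the membrane, and the protease Prss8 leads to cleavage of the channel that raises its activity. Kctd1 encodes a nuclear protein that binds AP-2 transcription factors and dampens their activity.

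Promoter sequences are shown for Sgk1 and Tsc22d3, which steroid receptors are known to switch on, and for the neighbouring subunit genes Scnn1b and Scnn1g, whose proportions are compared further on. RefSeq windows of the GRCm38.p6 build ran from 250 bases before to 50 bases after each annotated start. The search covered 5 of the 9 genes. The others were left out, though not all of them for want of a window, so the counts below do not describe them. The genes searched had 12 windows. Each was searched on both strands for a full steroid receptor element (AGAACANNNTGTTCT), its single-arm site (AGAACA), an AP-2 motif (GCCNNNGGC) and a GC box (GGGCGG), and a full element also counts as overlapping single-arm sites. The full element was found in 1 of the 6 windows of Sgk1, at chr10:21993701-21993715 and 965 bases before the Sgk1 start with the highest coordinate, and this element was present in 3 of 32851 windows of all genes (0.00913%). The first sequence is that window, chr10:21993640-21993939 on the plus strand, with the full element in capitals. The second is the window of Tsc22d3 with the highest coordinates, chrX:140600473-140600772 on the minus strand, with its single-arm site in capitals. The last pair are the windows of Scnn1b (chr7:121864788-121865087, plus strand) and Scnn1g (chr7:121734229-121734528, plus strand), with GC boxes in capitals, and a match on the opposite strand appears as its reverse complement.
Sgk1: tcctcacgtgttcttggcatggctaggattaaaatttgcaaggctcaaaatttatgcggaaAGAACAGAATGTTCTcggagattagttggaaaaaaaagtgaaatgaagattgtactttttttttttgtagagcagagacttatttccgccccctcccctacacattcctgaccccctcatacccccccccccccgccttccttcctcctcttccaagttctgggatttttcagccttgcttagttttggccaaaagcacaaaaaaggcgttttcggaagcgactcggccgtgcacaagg
Tsc22d3: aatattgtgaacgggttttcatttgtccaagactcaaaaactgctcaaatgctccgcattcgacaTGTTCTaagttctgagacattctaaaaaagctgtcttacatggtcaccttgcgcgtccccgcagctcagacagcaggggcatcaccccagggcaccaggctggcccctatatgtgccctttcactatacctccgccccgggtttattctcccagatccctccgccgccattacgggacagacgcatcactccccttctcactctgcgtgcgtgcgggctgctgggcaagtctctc
Scnn1b: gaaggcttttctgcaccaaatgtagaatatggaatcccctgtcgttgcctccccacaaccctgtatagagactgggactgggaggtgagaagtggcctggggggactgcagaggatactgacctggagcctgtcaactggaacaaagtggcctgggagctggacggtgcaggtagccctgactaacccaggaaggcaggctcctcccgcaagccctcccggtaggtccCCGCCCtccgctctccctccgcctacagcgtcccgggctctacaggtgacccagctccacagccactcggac
Scnn1g: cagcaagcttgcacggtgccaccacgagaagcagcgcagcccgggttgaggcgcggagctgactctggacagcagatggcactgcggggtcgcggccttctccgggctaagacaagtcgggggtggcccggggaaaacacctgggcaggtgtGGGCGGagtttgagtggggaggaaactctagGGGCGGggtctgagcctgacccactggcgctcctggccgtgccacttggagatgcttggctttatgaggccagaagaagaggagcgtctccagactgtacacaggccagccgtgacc
Single-arm sites stood in 19.0% of all windows, AP-2 motifs in 16.6% and GC boxes in 35.7%, so that each of these matches is common. An AP-2 motif was present in 2 of the 6 Sgk1 windows, and 7 of the 12 windows held neither a single-arm site nor an AP-2 motif. The Scnn1b window held 1 GC box and the Scnn1g window 2, and neither held a single-arm steroid receptor site or an AP-2 motif. A match describes the letters of the window and is not a measured binding site.

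The libraries held 14457760 to 20741076 counts, with a mean of 17264065 ± 2543387 in the knockout group and 18069374 ± 2884422 in the wildtype group (SD, n = 4 each). Levels are given as CPM (counts relative to the library total) scaled with TMM factors, which compare libraries for 1 gene, and as TPM (transcript abundance per length), which compares genes. Kctd1 itself had 22.4, 25.4, 25.8 and 23.5 CPM in knockout libraries 1 to 4, against 32.1, 28.9, 32.6 and 32.6 CPM in wildtype libraries 1 to 4. The groups did not overlap, and the knockout mean was 77.0% of the wildtype mean, with an adjusted p of 0.279 by edgeR's quasi-likelihood test and 0.0160 by DESeq2. Knockout library 2 stood apart in ribosomal RNA (Rn18s-rs5), which took 5.39% of its counts, the highest share of the 8 libraries and well above the lowest of 0.361%. Xist, the X-inactivation RNA of female cells, had 81994 counts in knockout library 2 and 101295 in wildtype library 3 and at most 151 counts in any other library.

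None of the 9 genes passed the threshold of 0.05 on the adjusted p of edgeR's quasi-likelihood test, against 0.0809% of all tested genes (15 of 18548). DESeq2 also called 0 of the 9 genes, against 0.771% of all tested genes. At an unadjusted p under 0.05, edgeR gave 1 of the 9, Scnn1a, which was lower in knockout kidneys, where 6.18% of all tested genes passed at that level and 3.08% were lower. This count rests on single libraries: it was 0 without knockout library 1, knockout library 4, wildtype library 2 or wildtype library 4, and 2, with Tsc22d3 added, without knockout library 2 and without the 2 libraries with many Xist counts. The log2 fold changes of knockout over wildtype ranged from -0.23 to 0.11, with 5 positive and 4 negative, and their median was 0.0021 beside 0.00116 over all tested genes. In TMM-scaled CPM the 2 groups overlapped for each of the 9 genes, while 4.03% of all tested genes had groups that did not overlap. These libraries are bulk tissue, in which fewer cells of a type and less RNA per cell cannot be told apart.

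**Figure D1:**
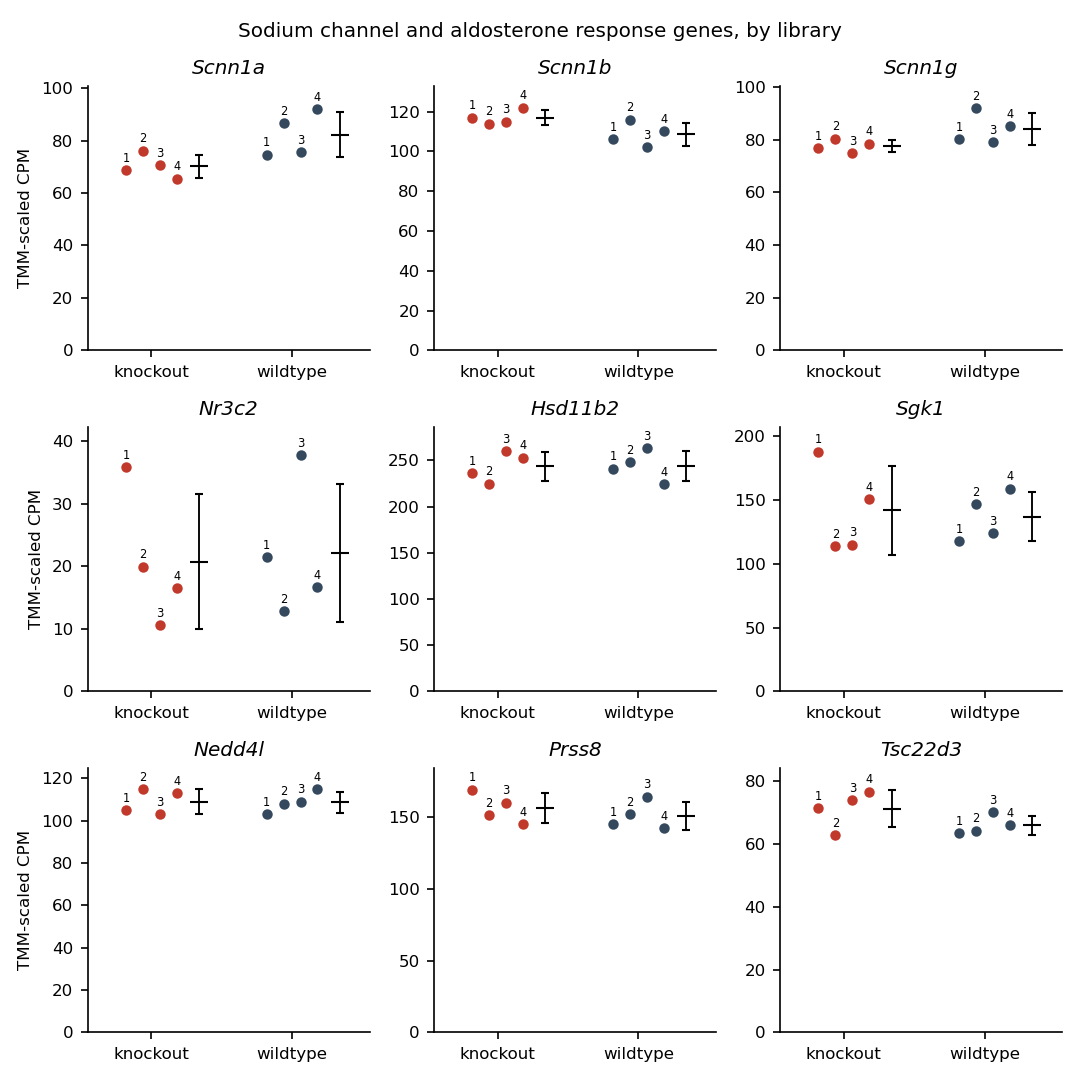
TMM-scaled CPM (vertical axes, linear from 0) of the 9 genes in each of 4 knockout and 4 wildtype kidney libraries; numbered points are libraries and bars are group means with the SD. For each of the 9 genes the points of the groups overlap; Nr3c2 spans 10.6 to 37.7 CPM and Sgk1 114 to 188 CPM, while Nedd4l stays between 103 and 115 CPM.

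Scnn1a, on chromosome 6 (chr6:125320659-125344943, plus strand, GRCm38), encodes the alpha subunit, without which the channel is barely active. It had 68.7, 76.1, 70.5 and 65.5 CPM in knockout libraries 1 to 4, against 74.6, 86.7, 75.5 and 92.0 CPM in wildtype libraries 1 to 4. Knockout library 2 lay above wildtype libraries 1 and 3, and the other 3 knockout libraries lay below every wildtype library. The means were 70.2 ± 4.44 CPM in knockout and 82.2 ± 8.55 CPM in wildtype kidneys (SD, n = 4 each), or 85.4% of the wildtype level. The log2 fold change was -0.23 ± 0.089 (SE, 95% interval -0.43 to -0.032), with a p of 0.0269 and an adjusted p of 0.711 by edgeR's quasi-likelihood test over all tested genes. DESeq2 gave an adjusted p of 0.550. Leaving out 1 library kept the value between -0.27 and -0.17, with an unadjusted p as high as 0.0879 without wildtype library 4, and without the 2 libraries with many Xist counts it was -0.31 (unadjusted p 0.0129).

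In TPM, Scnn1a had 10.5, 8.77, 10.6 and 10.5 in knockout libraries and 11.9, 13.1, 11.9 and 15.4 in wildtype libraries, and on this scale the groups did not overlap. TPM carries no TMM factor, and the median log2 fold change of all tested genes was -0.106 on the log2(TPM + 1) scale. Knockout library 2, with its high ribosomal RNA share, was the lowest of the 8 libraries in TPM for 8 of the 9 genes, Nr3c2 being the exception.

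Scnn1b encodes the beta subunit and lies on chromosome 7 at chr7:121865038-121918514, on the plus strand. Its levels were 117, 114, 115 and 122 CPM in knockout libraries, against 106, 116, 102 and 110 CPM in wildtype libraries. Wildtype library 2 lay within the knockout range, and the other 3 wildtype libraries lay below it. Knockout over wildtype gave a log2 fold change of 0.11 ± 0.064 (SE, 95% interval -0.035 to 0.25), with an adjusted p of 0.869 by edgeR's quasi-likelihood test, and it was -0.034 on the log2(TPM + 1) scale. Expressed as TPM, Scnn1b averaged 23.9 ± 3.84 in knockout and 24.3 ± 1.44 in wildtype kidneys (SD, n = 4 each).

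Scnn1g, the gamma subunit gene, lies on the same strand at chr7:121734479-121768475, and 96563 bases separate its end from the start of Scnn1b. It had 76.8, 80.4, 74.9 and 78.5 CPM in knockout libraries, against 80.2, 92.1, 79.0 and 85.1 CPM in wildtype libraries. Knockout library 2 alone reached into the wildtype range. This amounts to a log2 fold change of -0.12 ± 0.071 (SE, 95% interval -0.27 to 0.042), with an adjusted p of 0.885 by edgeR's quasi-likelihood test. The intervals of all 3 subunits leave out a change of 2-fold in either direction.

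The proportions of the subunit transcripts to each other were compared in TPM, where library scaling cancels out. The ratio of Scnn1b to Scnn1a was 2.40, 2.11, 2.31 and 2.62 in knockout libraries, against 1.99, 1.88, 1.91 and 1.69 in wildtype libraries. Every knockout library had a higher ratio than every wildtype library, and the log2 ratio averaged 1.23 ± 0.13 in knockout and 0.90 ± 0.10 in wildtype kidneys (SD, n = 4 each), a difference of 0.33. The two-sided exact permutation p was 0.0286, the smallest that 4 against 4 libraries allow, and 0.0857 after Benjamini-Hochberg adjustment over the 6 ratios tested, which is above the threshold.

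The ratio of Scnn1g to Scnn1b was 0.542, 0.582, 0.534 and 0.531 in knockout libraries, against 0.626, 0.655, 0.636 and 0.635 in wildtype libraries. Here every knockout library had the lower ratio, with log2 means of -0.87 ± 0.061 in knockout and -0.65 ± 0.028 in wildtype kidneys (SD, n = 4 each) and a difference of -0.22. The exact permutation p was 0.0286, and 0.0857 after adjustment over 6 ratios. This ratio shares Scnn1b with the ratio of Scnn1b to Scnn1a, so their separations are not independent results. The ratio of Scnn1g to Scnn1a, by contrast, was 1.23 to 1.39 in knockout and 1.07 to 1.25 in wildtype libraries, which overlap (difference 0.11 on the log2 scale, exact permutation p 0.200, adjusted 0.400). Leaving out 1 library at a time kept the difference between 0.28 and 0.39 for Scnn1b to Scnn1a and between -0.25 and -0.21 for Scnn1g to Scnn1b. Without the 2 libraries with many Xist counts the differences were 0.40 and -0.25.

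**Figure D2:**
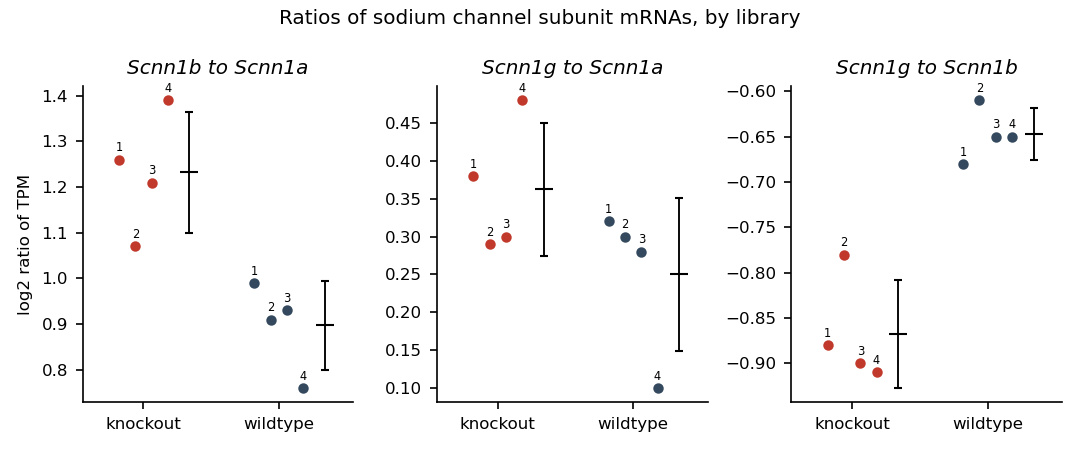
Log2 ratio of TPM (vertical axes) for pairs of genes in each of 4 knockout and 4 wildtype libraries; numbered points are libraries and bars are group means with the SD. The knockout points lie wholly above the wildtype points for Scnn1b to Scnn1a (means 1.23 and 0.90) and wholly below for Scnn1g to Scnn1b (means -0.87 and -0.65), and the groups overlap for Scnn1g to Scnn1a.

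The receptor gene Nr3c2 (chr8:76899442-77245012, plus strand) was the least abundant and the most variable of the set. It had 35.8, 19.9, 10.6 and 16.5 CPM in knockout libraries, against 21.4, 12.8, 37.7 and 16.6 CPM in wildtype libraries, from 154 to 767 counts. Knockout library 1 and wildtype library 3 were far above the other libraries of their groups, and the groups covered nearly the same range. Its log2 fold change was -0.10 ± 0.44 (SE, 95% interval -1.12 to 0.92), with an adjusted p of 0.990 by edgeR's quasi-likelihood test, and it was 0.31 without the 2 libraries with many Xist counts. The interval allows 0.460 to 1.89 times the wildtype level, so it does not exclude changes of considerable size in either direction. The spread within groups, an SD of 0.68 on the log2 CPM scale, exceeded that of 98.2% of the 500 genes nearest in level.

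The ratio of Nr3c2 to the glucocorticoid receptor gene Nr3c1 in TPM was 0.484, 0.235, 0.153 and 0.218 in knockout libraries, against 0.292, 0.165, 0.555 and 0.223 in wildtype libraries. The same 2 libraries were the highest, and the difference of -0.16 in log2 ratio had an exact permutation p of 0.686 (adjusted 0.743). Nr3c1 itself averaged 114 ± 9.50 CPM in knockout and 110 ± 6.32 CPM in wildtype kidneys (SD, n = 4 each).

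Hsd11b2, the enzyme that gives the receptor its preference for aldosterone, lies on the same chromosome at chr8:105518755-105523988. It had 236, 225, 260 and 253 CPM in knockout libraries, against 241, 248, 263 and 224 CPM in wildtype libraries. The means of 243 ± 16.1 CPM in knockout and 244 ± 16.5 CPM in wildtype kidneys (SD, n = 4 each) differed by far less than the spread between libraries, and the 95% interval of the log2 fold change was -0.17 to 0.16. Its ratio in TPM to Hsd11b1, which encodes the enzyme that regenerates active glucocorticoid, had geometric means of 34.0 in knockout and 28.0 in wildtype kidneys, with overlapping groups and an exact permutation p of 0.343 (adjusted 0.514).

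Sgk1, the early aldosterone-induced kinase gene (chr10:21882184-21999903, plus strand), had 188, 114, 115 and 151 CPM in knockout libraries, against 118, 147, 124 and 159 CPM in wildtype libraries. Knockout library 1 was above all others, while knockout libraries 2 and 3 were the lowest of the 8. The log2 fold change was 0.054 ± 0.17 (SE, 95% interval -0.33 to 0.44) with an adjusted p of 0.984 by edgeR's quasi-likelihood test, and it was -0.11 without knockout library 1 and also on the log2(TPM + 1) scale, and 0.099 without the 2 libraries with many Xist counts. Its spread within groups (SD 0.28 on the log2 CPM scale) exceeded that of 92.6% of the 500 genes nearest in level.

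Knockout library 1, the highest for Sgk1 and the highest knockout library for Nr3c2, also had the highest summed level of 9 principal cell markers, at 1633 CPM. That sum was 1033 to 1167 CPM in the other knockout libraries and 1122 to 1149 CPM in wildtype libraries. The water channel gene Aqp2, chosen from these markers after its values were seen, had 478 CPM in that library, against 149 to 202 CPM in the other 7. The sum is weighted to the most abundant markers, above all Tfcp2l1, with 731 CPM in knockout library 1 and 602 to 657 CPM in the other 7. The excess of the sum in knockout library 1 nevertheless came more from Aqp2 than from any other of the 9 markers. Wildtype library 3, the highest of all for Nr3c2, had by contrast the lowest principal cell sum of the wildtype libraries, 1122 CPM. The part of these marker levels in the values of Sgk1 and Nr3c2 was not tested.

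Nedd4l (chr18:64887705-65217828, plus strand), the ligase that tags the channel for removal, had the narrowest range of the 9 genes over the 8 libraries (highest over lowest 1.13), with 105, 115, 103 and 113 CPM in knockout libraries, against 103, 108, 109 and 115 CPM in wildtype libraries. The groups covered the same range, and the 95% interval of the log2 fold change was -0.15 to 0.15. Its ratio in TPM to the related ligase gene Nedd4 had geometric means of 0.0704 in knockout and 0.0724 in wildtype kidneys (exact permutation p 0.743, adjusted 0.743).

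Prss8 (chr7:127925716-127930104, minus strand) encodes prostasin, a membrane-anchored serine protease. Its levels were 169, 151, 160 and 145 CPM in knockout libraries, against 145, 152, 164 and 142 CPM in wildtype libraries, and the groups overlapped almost completely. Its log2 fold change was 0.052 ± 0.074 (SE, 95% interval -0.11 to 0.22), with an adjusted p of 0.954 by edgeR's quasi-likelihood test. It was -0.091 on the log2(TPM + 1) scale and 0.11 without the 2 libraries with many Xist counts.

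Tsc22d3 (chrX:140539528-140600659, minus strand) encodes the leucine zipper protein GILZ, which is induced by both classes of corticosteroid. It had 71.4, 62.8, 74.0 and 76.6 CPM in knockout libraries, against 63.4, 64.2, 70.1 and 66.0 CPM in wildtype libraries. Knockout library 2 was the lowest of all, and the other 3 knockout libraries lay above every wildtype library. The log2 fold change was 0.11 ± 0.080 (SE, 95% interval -0.067 to 0.29) with an adjusted p of 0.912 by edgeR's quasi-likelihood test, and it was -0.034 on the log2(TPM + 1) scale. It was 0.17 without knockout library 2 (edgeR p 0.0467, adjusted 0.825) and 0.20 without the 2 libraries with many Xist counts (edgeR p 0.0290, adjusted 0.830).

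**Figure D3:**
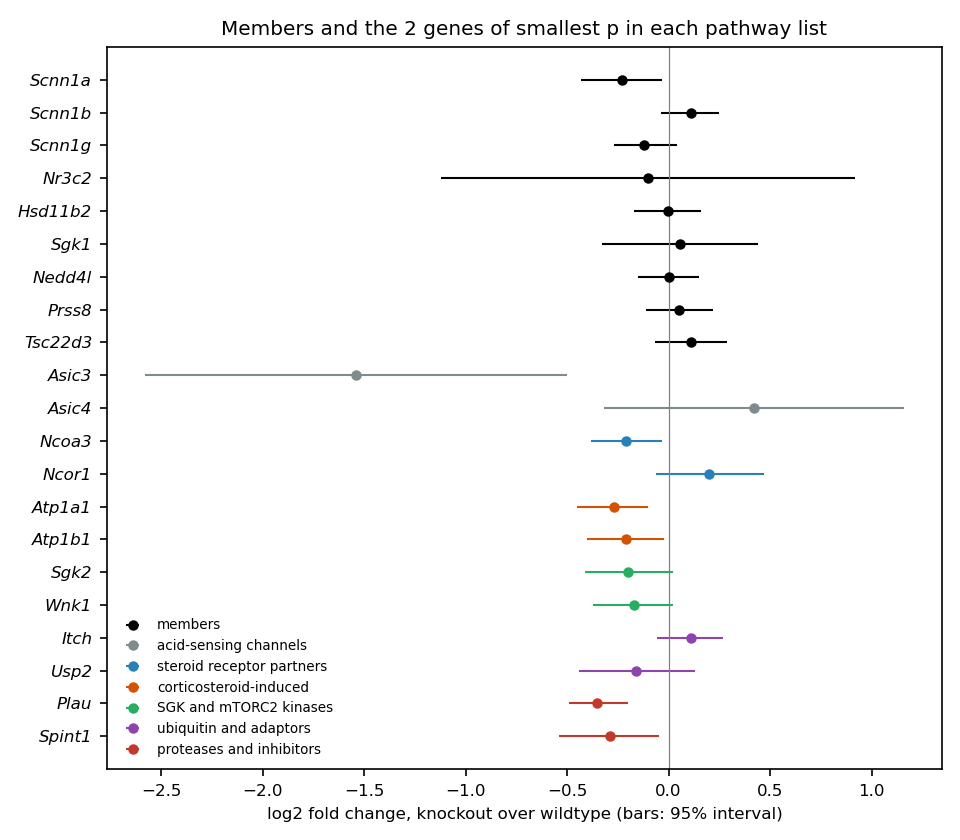
Log2 fold change of knockout over wildtype (horizontal axis) with its 95% interval from edgeR's quasi-likelihood fit, for the 9 genes and the 2 genes of smallest p in each pathway list. Among the 9 genes, Scnn1a alone has an interval, from -0.43 to -0.032, that lies below 0, and Nr3c2 has the widest, from -1.12 to 0.92. Outside the 9, some intervals also lie below 0, among them those of Plau (-0.49 to -0.20) and Asic3 (-2.58 to -0.50).

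Per length, the 9 genes kept one order in all 8 libraries. Hsd11b2 was highest with a median of 75.7 TPM (51.6 to 82.4), followed by Prss8 with 37.2 to 55.1 TPM, Sgk1 with a median of 36.2 TPM (22.8 to 49.9) and Scnn1b with 24.6 TPM (18.5 to 27.5). Tsc22d3 followed with 21.9 TPM (14.5 to 24.6), Scnn1g with 14.5 TPM (10.7 to 16.5), Scnn1a with 11.2 TPM (8.77 to 15.4), Nedd4l with 6.57 TPM (5.35 to 7.74) and Nr3c2 with 2.22 TPM (1.31 to 4.84). Each gene exceeded the next in 8 of 8 libraries. The ranges over libraries nevertheless overlapped for each pair of neighbours except Scnn1a with Nedd4l and Nedd4l with Nr3c2. Among the channel subunits the beta transcript was thus the most abundant and the alpha transcript the least in every kidney library.

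Over the 8 libraries the 9 genes formed 36 pairs, and 0 of the 36 correlations of log2 CPM passed the threshold after adjustment. The closest pair was Scnn1a with Scnn1g, with a Pearson r of 0.81 (exact permutation p 0.0134, adjusted 0.483) and a Spearman rho of 0.86 (exact permutation p 0.0107, adjusted 0.386). The r was 0.52 without wildtype libraries 2 and 4, the 2 farthest from the median of Scnn1a, so the relation rests in part on them, and 0.66 after centring within each genotype. After that centring the highest r was 0.79, for Scnn1b with Scnn1g, which had an r of -0.030 uncentred, and Hsd11b2 with Tsc22d3 followed at 0.72. None of the 36 pairs passed the threshold after centring.

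The genes whose levels most resembled those of each member were looked up among 11551 genes with a mean of at least 10 CPM, as Pearson r of log2 CPM over the 8 libraries, and are given as a description. For the channel subunits these were Enpep (0.93) and Tenm3 (0.92) for Scnn1a, Zfp729a (0.96) and Plppr1 (0.95) for Scnn1b, and Tox3 (0.95) and Nadk (0.95) for Scnn1g. Zw10 (0.95) and Fxyd5 (0.95) were closest to Nr3c2, C1qa (0.99) and Ccdc85b (0.97) to Hsd11b2, and Faah (0.98) and Vps33b (0.96) to Sgk1. Fpgt (0.98) and Ppox (0.95) were closest to Nedd4l, Hmg20b (0.92) and Stxbp6 (0.92) to Prss8, and Krt18 (0.96) and Spc25 (0.96) to Tsc22d3. With 8 libraries and this many genes, high values of r arise for any gene.

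Around the 9 genes, 69 further genes of the same pathway were listed by role, of which 67 were tested. By edgeR's quasi-likelihood test, 0 of the 67 passed the adjusted threshold, and 6 were lower and 0 higher at an unadjusted p under 0.05. The 6, among them Asic3, Ncoa3, Atp1b1, Plau and Spint1, are 8.96% of the 67, where 3.08% of all tested genes were lower at that level and 3.11% higher. The count at that level, in either direction, was 12 without knockout library 1, 9 without knockout library 2 or without the 2 libraries with many Xist counts, and 4 without wildtype library 2. Groups that did not overlap were found for 4 of the 67, among them Ncoa3, Plau and the kallikrein gene Klk1, all lower in knockout kidneys, or 5.97%, against 2.06% lower and 1.97% higher among all tested genes. The median log2 fold change of the 67 was -0.0092, with 30 positive and 37 negative, beside 0.00116 for all tested genes.

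Among the proteases that can cleave the channel and their inhibitors, 2 of 9 tested genes had positive and 7 negative log2 fold changes, around a median of -0.094. Plau, which encodes urokinase, a serine protease able to cleave the gamma subunit, had 701, 612, 705 and 693 CPM in knockout libraries, against 874, 859, 867 and 848 CPM in wildtype libraries. Every knockout library was below every wildtype library, and their mean was 78.7% of the wildtype mean. The log2 fold change was -0.35 ± 0.065 (SE, 95% interval -0.49 to -0.20), with an adjusted p of 0.140 by edgeR's quasi-likelihood test and 4.8e-05 by DESeq2. Plau was the only one of the 67 that DESeq2 called. Spint1, an inhibitor of membrane-bound serine proteases, had 99.8, 94.7, 87.5 and 98.1 CPM in knockout libraries, against 117, 117, 139 and 92.6 CPM in wildtype libraries. Wildtype library 4 lay within the knockout range, and the adjusted p was 0.706 by edgeR's quasi-likelihood test.

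Of 18 genes induced by corticosteroids, 8 had positive and 10 negative log2 fold changes, around a median of -0.0053. Atp1b1, which encodes a subunit of the sodium pump, averaged 1623 ± 153 CPM in knockout and 1878 ± 128 CPM in wildtype kidneys (SD, n = 4 each), with an adjusted p of 0.726. The pump is made in most tubule segments, so this level is not specific to cells with the sodium channel.

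Of 11 receptor partners and steroid-handling genes, 6 had positive and 5 negative log2 fold changes. The coactivator gene Ncoa3 averaged 64.6 ± 5.01 CPM in knockout and 74.5 ± 4.24 CPM in wildtype kidneys (SD, n = 4 each; adjusted p 0.706), and the corepressor gene Ncor1 averaged 191 ± 27.4 CPM in knockout and 166 ± 19.3 CPM in wildtype kidneys (adjusted p 0.859). Of the 13 kinases around Sgk1, 6 had positive and 7 negative values. Sgk2, a related kinase gene, averaged 39.6 ± 4.05 CPM in knockout and 45.3 ± 3.98 CPM in wildtype kidneys, and Wnk1, which encodes a kinase that regulates salt transport, 420 ± 52.2 CPM in knockout and 474 ± 18.2 CPM in wildtype kidneys (SD, n = 4 each; adjusted p 0.837 for both).

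Of 13 ubiquitin ligases, adaptors and deubiquitinases, 7 had positive and 6 negative log2 fold changes. The ligase gene Itch averaged 89.6 ± 3.85 CPM in knockout and 83.1 ± 6.20 CPM in wildtype kidneys (SD, n = 4 each; adjusted p 0.908). Usp2, a deubiquitinase gene, averaged 52.6 ± 8.86 CPM in knockout and 58.6 ± 7.29 CPM in wildtype kidneys (SD, n = 4 each; adjusted p 0.925). Of the acid-sensing relatives of the channel, 4 of 5 were tested, and 1 had a positive and 3 a negative log2 fold change. Asic3 was scarce, with 0.629, 0.167, 0.483 and 0.697 CPM in knockout libraries, against 1.95, 1.60, 1.62 and 0.673 CPM in wildtype libraries, from 3 to 33 counts. Wildtype library 4 lay within the knockout range, and the adjusted p was 0.549. Asic4 averaged 0.685 ± 0.113 CPM in knockout and 0.510 ± 0.0967 CPM in wildtype kidneys (SD, n = 4 each; adjusted p 0.924).

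The segments in which the channel works were checked by their markers, all of which were detected. Of 7 distal convoluted tubule markers, edgeR's quasi-likelihood test called 3, Slc12a3, Pvalb and Sall3, which fell in knockout kidneys. That test called 0.0809% of all tested genes. DESeq2 called 5 of the 7, each with a lower level in knockout kidneys, against 0.771% of all tested genes. The summed level of the 7 was 462 to 550 CPM in knockout and 808 to 880 CPM in wildtype libraries. This sum is weighted to Slc12a3, which averaged 247 CPM in knockout and 464 CPM in wildtype kidneys. All 7 markers had negative log2 fold changes, and the largest of their unadjusted p-values by edgeR's quasi-likelihood test was 0.0213, for Trpm6. Of all tested genes, 3.08% fell in knockout kidneys with such a p below 0.05. The 6 connecting tubule markers summed to 1136 to 1680 CPM in knockout and 1684 to 1923 CPM in wildtype libraries, groups that did not overlap, and 0 of the 6 passed the adjusted threshold. The gap between the groups was 1680 against 1684 CPM, and the markers differed in sign: S100g, Klk1, Kl and Calb1 had negative log2 fold changes, while Slc8a1 and Trpv5 were at 125% and 117% of the wildtype level. The 9 principal cell markers summed to 1033 to 1633 CPM in knockout and 1122 to 1149 CPM in wildtype libraries, and 0 of the 9 passed. Sums without overlap were not particular to segments with the channel. Podocyte sums were 664 to 848 CPM in knockout and 904 to 1069 CPM in wildtype libraries. Macrophage sums were 73.8 to 77.6 CPM in knockout and 81.0 to 85.2 CPM in wildtype libraries. The part of these marker levels in the values of the channel genes was not tested. The 7 markers of adrenal cortex, which makes aldosterone, summed to 4.15 to 6.90 CPM in knockout and 5.48 to 6.39 CPM in wildtype libraries. Of these, the aldosterone synthase gene Cyp11b2 had 0 counts in every knockout library and at most 1 count in a wildtype library, where 3 counts correspond to 0.144 to 0.207 CPM.

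**Figure D4:**
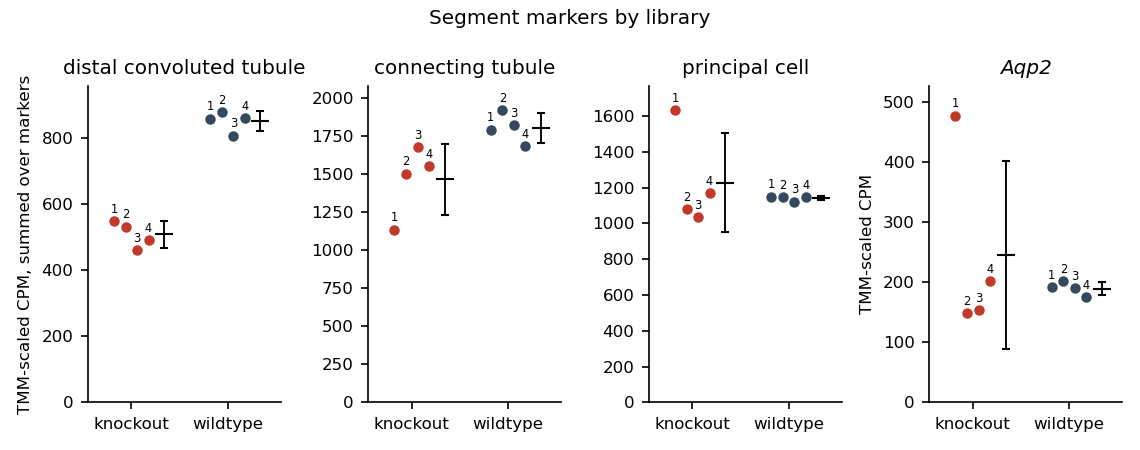
Summed TMM-scaled CPM (vertical axes) of 9 principal cell, 6 connecting tubule and 7 distal convoluted tubule markers in each of 4 knockout and 4 wildtype libraries; numbered points are libraries and bars are group means with the SD. Distal convoluted tubule sums are 462 to 550 CPM in knockout and 808 to 880 CPM in wildtype libraries, and knockout library 1 has the highest principal cell sum, 1633 CPM, and the lowest connecting tubule sum, 1136 CPM.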

How the data were processed

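RNA of whole kidneys was sequenced from 8 strand-specific libraries, per the labels' protocols. Per the submitters' processing notes, Salmon (no version given), DESeq2 1.14.1 and mm10 were used. An annotation release was not given in the sources used here. Estimated counts deposited by the authors are whole numbers, and their second deposited table gives TPM with identifiers and symbols. The 47729 rows of the count table, which has no gene names, were joined in order to the TPM table. For 13251 genes that reached 50 counts in all 8 libraries, the median SD of the log2 count:TPM ratio over libraries was 0.000645 (0.28 with rows shifted by 1), so both tables carry the same estimates.

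From there, filterByExpr kept 18548 genes. After TMM scaling, edgeR's quasi-likelihood test (version 4.0.16, R 4.3.3, robust, genotype alone, two-sided) set knockout against wildtype, with Benjamini-Hochberg adjustment over all tested genes and a threshold of 0.05. DESeq2 1.42.0 and limma 3.58.1 were alternatives, besides other scalings, filters, pseudocounts, a replicate block and leaving out libraries. Ratios used exact permutation tests over 70 relabelings. The common biological coefficient of variation was 20.7%. Every pair of libraries differed by more than sampling noise (lowest chi-square per degree of freedom 10.9), so none was treated as a library deposited again, which does not show that they come from different mice. Floors of 3 counts cover counting error only.

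The 9 genes and all lists were chosen with earlier results of these data known. All 9 are named, and from each pathway list the genes past the threshold or else the 2 with the smallest p. The values of 1 gene that this rule names are not reported here. Gene coordinates are those of GENCODE M21 on GRCm38, the assembly that mm10 denotes, and promoter windows and sequences are from RefSeq on GRCm38.p6.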

Additional observations from a re-analysis of the deposited data

Results flagged for a closer look

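Among 54 sets of 4 libraries (each gene's, ratio's and marker sum's values within a group), 5 held a library whose gap to the nearest of the others was above Dixon's critical value relative to the range, where about 2.70 are expected at 1 in 20. All 5 were sums of marker genes, and none was a value of the 9 genes. The thick ascending limb sum was 2748 CPM in knockout library 1, against 2372 to 2411 CPM in the other knockout libraries. The podocyte sum was 848 CPM in knockout library 2, against 664 to 694 CPM in the other knockout libraries, and 1069 CPM in wildtype library 4, against 904 to 932 CPM in the other wildtype libraries. The endothelial sum was 620 CPM in wildtype library 4, against 550 to 557 CPM in the other wildtype libraries. The principal cell sum was 1122 CPM in wildtype library 3, against 1145 to 1149 CPM in the other wildtype libraries. The part of these libraries in the values of the 9 genes was not tested beyond leaving each library out.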

How the results depend on the processing

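Under 21 alternatives, 0 of the 9 genes passed the threshold, and the smallest adjusted p was 0.550, for Scnn1a with DESeq2. Over all genes 15 passed in the fit as reported, against 27 with no filter, 143 with DESeq2, 6 with limma on log2(TPM + 1) and on log2(TPM + 0.1), 9 on log2(TPM + 1) with no filter, 3 without the 2 libraries with many Xist counts, and 10 to 52 leaving out 1 library (29 without knockout library 3, 52 without wildtype library 4). Of the 67 pathway genes, 1 passed with DESeq2. Libraries with the same replicate number did not deviate together (correlations -0.074 to 0.043, with 2 of 8 libraries closest to their own number). This check cannot show whether the numbers pair libraries, which the labels do not state. A replicate block gave 10 genes and 0 of the 9, and the sign-flip test of the ratios cannot go below 0.125.

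Scnn1a (-0.37 to -0.17) and Scnn1g (-0.26 to -0.070) kept their sign throughout. Signs reversed on log2(TPM + 1), on log2(TPM + 0.1) and on log2(TPM + 1) with no filter for Scnn1b (-0.034, -0.036, -0.034), Sgk1 (-0.11, -0.11, -0.11), Nedd4l (-0.12, -0.14, -0.12), Prss8 (-0.091, -0.093, -0.091) and Tsc22d3 (-0.034, -0.037, -0.034). On the first 2 of these scales the median of all tested genes was itself -0.106 and -0.141. Hsd11b2 was 0.0097 with upper-quartile scaling and Nedd4l -0.015 with total counts only. Without the 2 libraries with many Xist counts, Nr3c2 was 0.31, Hsd11b2 0.071, Nedd4l -0.026, the Nr3c2 to Nr3c1 ratio 0.20 and the Nedd4l to Nedd4 ratio 0.0057. Leaving out 1 library gave -0.50 to 0.29 for Nr3c2, -0.045 to 0.034 for Hsd11b2, -0.11 to 0.15 for Sgk1, -0.028 to 0.031 for Nedd4l, -0.48 to 0.17 for the Nr3c2 to Nr3c1 ratio and -0.088 to 0.030 for the Nedd4l to Nedd4 ratio. The cause of these reversals was not tested.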
